A study of Homo sapiens with 12 samples.

Results

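The transcripts of 10 transcription factors of the serous ovarian lineage, PAX8, SOX17, MECOM, WT1, EMX2, MEIS1, ESR1, SOX9, GATA6 and BHLHE40, were followed in KURAMOCHI (Ku) and COV362 (Cov) cells treated with THZ1, named Ku and Cov from here on. The members were taken by exact gene name, from a set drawn up with earlier results of these data known, and were found as 10 of the 23713 rows of each expression table. Each had an FPKM (fragments counted on a transcript, divided by its length and by the size of the library) above 1 in at least 1 library and was therefore tested among the 14251 active genes. On the deposited spike-in scale, 9 of the 10 were called lower after 250 nM THZ1 in Ku, where 68.6% of all active genes were. In Cov 10 of 10 were called lower, where 84% of all active genes were. The member lost most completely was SOX17 in Ku, which kept 0.757% of its DMSO level. Most genes fell under the compound, and the directions of ESR1, SOX9, BHLHE40 and WT1 in Cov depend on the scale, as given below.

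High-grade serous ovarian cancer is thought to arise largely from the secretory epithelium of the fallopian tube, which derives from the Müllerian duct. PAX8, SOX17, WT1, MECOM and EMX2 are expressed along this lineage, and PAX8 and WT1 are used by pathologists to recognise serous tumours. Such factors bind DNA at enhancers and promoters and hold a cell to its tissue identity. THZ1 is a covalent inhibitor of CDK7, a kinase that phosphorylates RNA polymerase II, and it also acts on CDK12 and CDK13. The libraries were made to measure how transcript levels change under the compound in ovarian cancer cells.

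KURAMOCHI and COV362 are established human ovarian cancer cell lines, labelled as untransduced controls. Ku cells were grown in RPMI and Cov cells in DMEM, both with 10% fetal bovine serum and antibiotics. Cells of each line received DMSO, 50 nM THZ1 or 250 nM THZ1 for 6 hr, with 2 libraries for each of the 3 conditions, 12 libraries in all, described as biological duplicates. RNA was set by cell number and mixed with ERCC spike-in RNAs, so the deposited FPKM follow RNA per cell, and fewer cells expressing a gene cannot be told apart from less RNA in each cell. The expression tables of the 2 lines were normalized separately, so values are set side by side between lines and were not tested between them.

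The median FPKM of active genes was 10.9 to 12.8 in the DMSO libraries of Ku, 6.90 to 7.55 at 50 nM and 2.84 to 3.13 at 250 nM. In Cov it was 13.4 to 14.4, 5.62 to 6.28 and 3.27 to 3.32. Replicates correlated across active genes with a Pearson's r of 0.968 to 0.983 on the log2 scale. The tables hold no read counts, so the depth is unknown, and rows without signal share a floor value of 0.0783 to 0.119 FPKM, depending on the library. Of 12 epithelial markers, 12 exceeded 1 FPKM in the Cov DMSO libraries and 10 in the Ku DMSO libraries, where CDH1 (E-cadherin, at most 0.559 FPKM) and MUC16 (CA125, at most 0.172 FPKM) did not. Their summed FPKM went from 5044 to 5334 (DMSO) down to 2729 to 2843 (250 nM) in Ku, and from 3900 to 4336 down to 1947 to 2246 in Cov. At most 2 of 7 fibroblast markers and 2 of 7 leukocyte markers exceeded 1 FPKM in any library, and PTPRC (CD45) stayed at or below 0.299 FPKM. Of 5 endothelial markers, 4 exceeded 1 FPKM in Ku DMSO libraries and 2 at 250 nM, led by CDH5 at up to 8.67 FPKM, but PECAM1 was at most 0.172 FPKM there and 0.378 FPKM in Cov. The summed fibroblast markers of Cov, 44.8 to 48.8 FPKM in DMSO and 22.1 to 25.5 at 250 nM, were mostly COL1A2. The part of these markers in the results was not tested.

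The genes of the members differ widely in size (positions on GRCh37 from the GENCODE annotation). MECOM spans 580277 bp of chromosome 3 (168801287 to 169381563, minus strand, 17 exons) and ESR1 spans 472929 bp of chromosome 6 (151977826 to 152450754, plus strand, 8 exons). At the other end, SOX17 spans 2958 bp with 2 exons, SOX9 5397 bp of chromosome 17 (70117161 to 70122557, plus strand, 3 exons) and BHLHE40 5887 bp of chromosome 3 (5021122 to 5027008, plus strand, 5 exons). Between them are EMX2 (7102 bp, chromosome 10, 119301956 to 119309057, plus strand), GATA6 (32942 bp, chromosome 18, 19749550 to 19782491, plus strand), WT1 (47790 bp, chromosome 11, 32409321 to 32457110, minus strand), PAX8 (62925 bp, chromosome 2, 113973574 to 114036498, minus strand) and MEIS1 (140418 bp, chromosome 2, 66660584 to 66801001, plus strand).

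The promoters of MEIS1, GATA6 and BHLHE40 are shown because these genes stand for different courses among the members. MEIS1 fell at each step in both lines, GATA6 fell in Ku almost wholly between the doses, and BHLHE40 kept 41.0% of its transcript in Cov and 6.32% in Ku. Each runs 5′ to 3′ along the gene's strand, from 250 bases before to 50 bases after the start (RefSeq, GRCh38.p14). Capitals mark CCAAT (the CCAAT box, bound by NF-Y), GGGCGG (the GC box, bound by SP1) and CACGTG (the E-box that BHLHE40 itself binds), on either strand.
MEIS1, chr2:66434875-66435174, plus strand: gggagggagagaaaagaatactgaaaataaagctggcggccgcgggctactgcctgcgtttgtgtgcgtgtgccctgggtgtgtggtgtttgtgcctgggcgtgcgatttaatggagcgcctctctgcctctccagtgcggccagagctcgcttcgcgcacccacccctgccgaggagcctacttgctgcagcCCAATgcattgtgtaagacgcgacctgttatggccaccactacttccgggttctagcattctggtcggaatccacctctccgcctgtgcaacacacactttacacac
GATA6, chr18:22169339-22169638, plus strand: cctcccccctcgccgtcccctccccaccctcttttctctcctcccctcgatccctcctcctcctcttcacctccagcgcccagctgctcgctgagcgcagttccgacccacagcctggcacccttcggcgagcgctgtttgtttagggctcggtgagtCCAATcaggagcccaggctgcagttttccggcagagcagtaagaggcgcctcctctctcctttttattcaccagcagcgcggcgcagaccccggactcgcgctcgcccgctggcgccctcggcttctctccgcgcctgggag
BHLHE40, chr3:4979187-4979486, plus strand: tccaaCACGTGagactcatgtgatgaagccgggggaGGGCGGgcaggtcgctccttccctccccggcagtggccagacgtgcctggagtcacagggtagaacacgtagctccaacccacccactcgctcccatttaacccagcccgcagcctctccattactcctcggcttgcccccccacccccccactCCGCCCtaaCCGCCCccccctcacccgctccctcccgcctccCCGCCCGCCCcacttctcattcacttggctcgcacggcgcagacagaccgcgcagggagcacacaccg

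The MEIS1 and GATA6 windows each held 1 CCAAT match and neither of the other motifs, and the BHLHE40 window held 1 CACGTG match and 5 GGGCGG matches, 2 of which overlap. GC content was 58.3% for MEIS1, 66.7% for GATA6 and 68.0% for BHLHE40, against a median of 58.7% over all promoters. Of the 10 members, 8 had entries in the promoter table, with 18 windows in all, of which 6 belong to ESR1, 4 to WT1 and 3 to MECOM. CCAAT or its reverse complement ATTGG stood in 9 of the 18 windows (50.0%), against 34.6% of all 34796 distinct windows. GGGCGG or CCGCCC stood in 8 (44.4%, against 44.9%), CACGTG in 1 (5.56%, against 7.2%), the GATA motif AGATAA or TTATCT in 1 (5.56%, against 10.4%) and the SOX motif AACAAT or ATTGTT in 2 (11.1%, against 10.1%). TATAAA or TTTATA, the TATA box, was in none of the 18 and in 11.6% of all windows. Windows of the same gene are not independent, and a match is a run of letters and not a shown binding site.

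**Figure D1:**
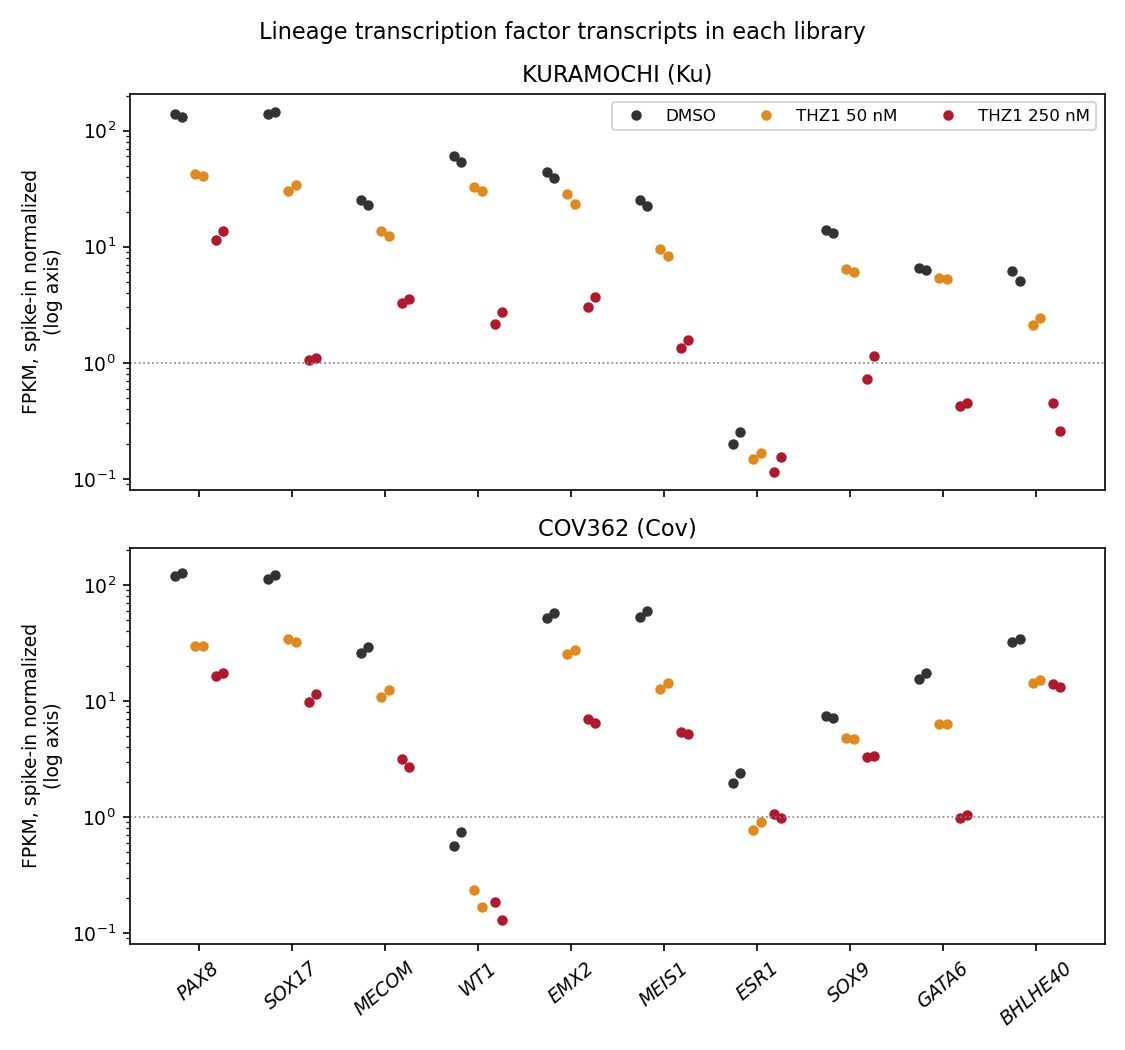
FPKM (log axis) of the 10 factors in each of the 12 libraries, with Ku above and Cov below; each point is 1 library, colour gives the condition, and the dotted line marks 1 FPKM. All 250 nM points lie below the DMSO points of the same gene, ESR1 in Ku and WT1 in Cov lie below 1 FPKM throughout, and SOX17 in Ku drops from about the level of PAX8 to 1.08 FPKM.

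The plot of FPKM by library shows where each factor started. In DMSO-treated Ku cells the highest transcripts were SOX17 at 142.8 ± 4.86 FPKM and PAX8 at 136.1 ± 5.5 FPKM (mean ± SD, n = 2 here and below), whose libraries overlapped. WT1 at 56.8 ± 4.73 and EMX2 at 41.8 ± 3.6 FPKM followed, then MECOM at 24.1 ± 1.75 and MEIS1 at 23.8 ± 1.71 FPKM, which overlapped. SOX9 at 13.6 ± 0.616 FPKM stood above GATA6 at 6.45 ± 0.187 and BHLHE40 at 5.65 ± 0.788 FPKM, and ESR1 was last at 0.227 ± 0.0373 FPKM, close to the floor. In DMSO-treated Cov cells PAX8 at 124.1 ± 5.33 and SOX17 at 116.7 ± 5.66 FPKM were again the highest and overlapped, as did MEIS1 at 56.1 ± 5.03 and EMX2 at 54.4 ± 4.11 FPKM. BHLHE40, MECOM, GATA6, SOX9 and ESR1 followed in that order without overlap, and WT1 was last at 0.653 ± 0.125 FPKM. FPKM are per length of transcript, so this order compares levels between genes, within each line's own scale.

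PAX8, the paired-box factor of Müllerian epithelium, fell in both lines at both doses. In Ku its FPKM was 140.0 and 132.2 in DMSO, 42.5 and 41.0 at 50 nM, and 11.5 and 13.8 at 250 nM. The Cov libraries, in the same order, held 120.3 and 127.9, 29.5 and 29.6, and 16.4 and 17.3. The groups did not overlap at any step, and 250 nM left 9.29% of the DMSO level in Ku and 13.6% in Cov. The log2 fold change at 250 nM, on the log2(FPKM + 1) scale used throughout, was -3.33 (SE 0.095, limma adjusted p = 6.52e-06) in Ku and -2.81 (SE 0.0798, adjusted p = 8.16e-07) in Cov. Relative to their 250 nM change, 50 nM already gave 50.4% of the log2 fold change in Ku and 72.3% in Cov, where the step from 50 to 250 nM was -0.78 (adjusted p = 0.000238), a log2 change that turned to 0.039 and was not called when libraries were scaled to equal medians. That last call was lost without either 250 nM library of Cov (adjusted p = 0.00178 and 0.00135). In Ku the 50 nM call was lost without any 1 library of the line (adjusted p up to 0.00244).

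SOX17, an HMG-box factor of endoderm and of Müllerian epithelium that is known to act with PAX8 in ovarian cancer cells, had the largest fall of the members in each line on the log2(FPKM + 1) scale, although GATA6 kept a smaller percentage in Cov (6.12%). Its FPKM in Ku was 139.4 and 146.2 in DMSO, 30.3 and 33.9 at 50 nM, and 1.06 and 1.10 at 250 nM. The Cov values were 112.7 and 120.8, 34.3 and 32.2, and 9.88 and 11.6. Set side by side, the lines had near values in DMSO and after 50 nM and far apart values after 250 nM. The mean was 132-fold lower at 250 nM in Ku, with 0.723% to 0.792% left across pairs of libraries, and 10.9-fold lower in Cov. The log2 fold changes at 250 nM were -6.11 (SE 0.0872, adjusted p = 4.79e-06) and -3.33 (SE 0.1, adjusted p = 8.16e-07). In Ku, 0.516% of the 12604 genes with a DMSO mean above 1 FPKM kept a smaller share than SOX17, and in Cov 7.02% of 13167 did. The 50 nM call of SOX17 in Ku was likewise lost without any 1 Ku library (adjusted p up to 0.00181).

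WT1, a zinc-finger factor of mesothelium and tubal epithelium, was expressed above 1 FPKM in Ku alone. Its FPKM there was 60.1 and 53.4 in DMSO, 32.7 and 30.4 at 50 nM, and 2.14 and 2.75 at 250 nM. Cov held 0.565 and 0.741, 0.236 and 0.168, and 0.187 and 0.131, below 1 FPKM in all 6 libraries. The log2 fold change in Ku was -0.83 at 50 nM (SE 0.12, adjusted p = 0.00246, not called) and -4.07 at 250 nM (adjusted p = 6.52e-06), the second largest fall among the members. Of that change 20.3% was present at 50 nM, and the step from 50 to 250 nM was -3.24 (adjusted p = 3.88e-05). The Cov value of -0.51 at 250 nM (SE 0.0757, adjusted p = 0.000367) rests on levels near the floor of 0.0943 to 0.11 FPKM in those groups, and the call was lost without DMSO replicate 2 (adjusted p = 0.00139) or either 250 nM library (0.00133 and 0.00264).

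EMX2, a homeobox factor needed for the urogenital tract, had similar levels in the lines and changed mainly at the higher dose. Its FPKM was 44.4 and 39.3, then 28.3 and 23.5, then 3.0 and 3.66 in Ku, in the order DMSO, 50 nM, 250 nM. Cov had 51.5 and 57.3, 25.4 and 27.3, and 7.0 and 6.44. At 50 nM the log2 fold change was -0.68 in Ku (SE 0.135, adjusted p = 0.0076, not called) and -1.02 in Cov (SE 0.0963, adjusted p = 6.65e-05), and it turned to 0.010 and 0.18 under equal medians, not called. At 250 nM it was -3.31 (adjusted p = 8.89e-06) and -2.84 (adjusted p = 8.16e-07), and 7.96% and 12.4% of the DMSO level remained. EMX2OS, a long noncoding RNA on the opposite strand that overlaps EMX2 by 2624 bp, went from a mean of 15.2 to 4.98 and 3.25 FPKM in Ku and from 13.5 to 3.71 and 3.62 FPKM in Cov. EMX2 itself fell further between the doses in Cov (-1.83, adjusted p = 3.66e-05).

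MECOM, the locus of the zinc-finger factor EVI1, is amplified in many serous tumours. Its FPKM was 25.4 and 22.9 in DMSO, 13.8 and 12.4 at 50 nM and 3.28 and 3.58 at 250 nM in Ku. Cov values were 26.0 and 29.4, 10.9 and 12.5, and 3.17 and 2.69. Levels were close in the lines at every dose. After 50 nM the log2 fold change was -0.84 in Ku (SE 0.113, adjusted p = 0.0019, not called) and -1.18 in Cov (SE 0.119, adjusted p = 8.54e-05, and 0.00124 without DMSO replicate 2). At 250 nM it was -2.50 (adjusted p = 1.08e-05) and -2.87 (adjusted p = 1.02e-06), leaving 14.2% and 10.6%. The doses did not overlap in either line.

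MEIS1, a TALE homeobox factor that binds DNA with PBX proteins, fell in both lines at both doses and at the step between them. Its FPKM was 25.0 and 22.6, 9.50 and 8.34, and 1.34 and 1.56 in Ku. In Cov, where it started higher, it was 52.5 and 59.7, 12.6 and 14.4, and 5.37 and 5.19. After 50 nM the log2 fold change was -1.32 in Ku (SE 0.128, adjusted p = 0.000673) and -1.98 in Cov (SE 0.107, adjusted p = 2.16e-05). At 250 nM it was -3.34 (adjusted p = 7.97e-06) and -3.18 (adjusted p = 8.16e-07), so the percentage of transcript left was 6.09% and 9.41%. No libraries of different doses overlapped. The 50 nM call in Ku did not hold when any 1 Ku library was left out (adjusted p up to 0.00628), nor did the step between doses without either of 2 libraries (up to 0.00109).

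GATA6, a zinc-finger factor of endoderm and of ovarian surface epithelium, responded in Ku almost wholly between the doses. Its FPKM there was 6.58 and 6.32 in DMSO, 5.35 and 5.26 at 50 nM, and 0.425 and 0.453 at 250 nM. After 50 nM the log2 fold change was -0.24 (SE 0.113, adjusted p = 0.115, not called), with 82.2% of the DMSO level left, more than in 70.5% of genes. From 50 to 250 nM it was -2.13 (adjusted p = 5.86e-05), and 6.81% remained. In Cov GATA6 went from 15.6 and 17.5 to 6.37 and 6.38 and then to 0.989 and 1.04 FPKM. There it was called at 50 nM (-1.25, SE 0.101, adjusted p = 3.88e-05) and at 250 nM (-3.12, adjusted p = 8.16e-07), and its 6.12% left at 250 nM was the lowest of the members in that line.

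SOX9, an HMG-box factor of duct epithelia and progenitor cells, kept a larger share of its transcript in Cov than in Ku, a difference that was not tested. In Ku its FPKM was 14.0 and 13.2, 6.42 and 6.00, and 0.719 and 1.15. Cov stood at 7.43 and 7.20, 4.85 and 4.72, and 3.30 and 3.39. So 250 nM left 6.88% in Ku (log2 fold change -2.92, SE 0.153, adjusted p = 1.49e-05) and 45.7% in Cov (-0.94, SE 0.0922, adjusted p = 3.64e-05). In Cov 77.0% of genes kept a smaller share than SOX9, and its direction there turned under both rescalings described below. At 50 nM SOX9 was called in neither line, at -1.02 in Ku (adjusted p = 0.00274) and -0.52 in Cov (adjusted p = 0.00113).

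BHLHE40, a basic helix-loop-helix repressor that is induced by many stresses and belongs to the circadian clock, showed the same contrast. In Ku its FPKM was 6.20 and 5.09 in DMSO, 2.13 and 2.42 at 50 nM, and 0.454 and 0.260 at 250 nM. In Cov it was 32.4 and 34.1, 14.2 and 15.1, and 14.1 and 13.2, so the libraries of the higher dose lay just below those of the lower, a difference that was not called (-0.10, SE 0.0883, adjusted p = 0.373). At 250 nM 6.32% remained in Ku (log2 fold change -2.29, SE 0.14, adjusted p = 2.24e-05) and 41.0% in Cov (-1.23, adjusted p = 7.3e-06), where the direction turned under both rescalings.

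ESR1, which encodes estrogen receptor alpha, was low in both lines, and its direction at 250 nM turned under both rescalings. Its FPKM in Ku was 0.201 and 0.254 in DMSO, 0.148 and 0.165 at 50 nM, and 0.115 and 0.153 at 250 nM, against floors of 0.118 and 0.119 in the DMSO libraries. No change was called there (250 nM: -0.11, adjusted p = 0.0435), and a fall was not measurable at this level. In Cov it was 1.95 and 2.41 in DMSO, 0.777 and 0.911 at 50 nM, and 1.06 and 0.980 at 250 nM. The log2 fold change was -0.78 at 50 nM (SE 0.0983, adjusted p = 0.000216) and -0.65 at 250 nM (adjusted p = 0.000405), and both 250 nM libraries stood above both 50 nM libraries, without a called difference (0.13, adjusted p = 0.286). Without DMSO replicate 2 neither dose was called (adjusted p = 0.0015 and 0.0023), and the 250 nM call was also lost without either 250 nM library (0.00178 and 0.00269).

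**Figure D2:**
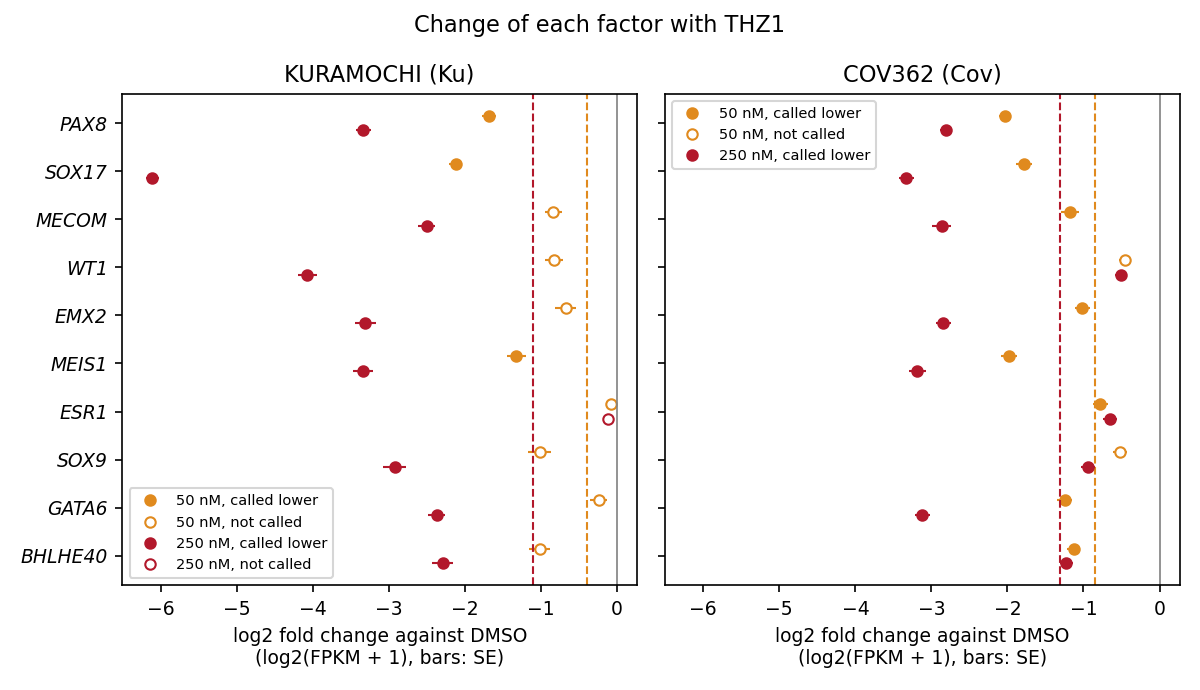
Log2 fold change against DMSO of each factor at 50 nM (orange) and 250 nM (red) in Ku (left) and Cov (right), on the log2(FPKM + 1) scale of the spike-in normalized values; bars are standard errors of the limma fit, filled points are called and open points are not, and dashed lines give the median of all 14251 active genes at each dose. In Ku 9 of the 250 nM points lie left of the 250 nM line, and in Cov 6 do, while WT1, ESR1, SOX9 and BHLHE40 lie right of it.

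Taking the members together, 3 of 10 were called lower at 50 nM in Ku, PAX8, SOX17 and MEIS1, where 11.3% of all active genes were called lower. This count did not withstand the loss of any library: it was 0 when each of the 6 Ku libraries was left out in turn, with adjusted p of up to 0.00181 for SOX17, 0.00244 for PAX8 and 0.00628 for MEIS1. At the looser adjusted p of 0.05, 8 members passed, where 40.2% of all genes did. After 250 nM 9 of 10 passed in Ku, against 68.6% of all genes, and the count was 9 in each of the 6 fits that left out a library. From 50 to 250 nM 9 were called lower, against 36% of all genes. That count was 5 without 50 nM replicate 1 or without 250 nM replicate 1, and 7 without 50 nM replicate 2 or without 250 nM replicate 2, with BHLHE40, SOX9, MECOM and MEIS1 among the calls lost.

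In Cov 8 of 10 were called lower at 50 nM, against 70.5% of all genes, WT1 and SOX9 being the exceptions. All 10 were called lower at 250 nM, against 84%, and 6 from 50 to 250 nM, against 24.4%. The count at 250 nM was 8 without DMSO replicate 2 or without either 250 nM library, when ESR1 and WT1 were lost. The shares of all genes were already high in 3 of these comparisons, and a count near them says little about the members. No member was called higher in any of the 6 comparisons, and few genes were: 0.0842% after 50 nM, 0.0491% after 250 nM and 0.0421% between the doses in Ku, and 0.0772%, 0.105% and 0.0842% in Cov. In the plot of changes, the dashed medians set the size of the members' falls apart from their number. The median log2 fold change of the members was, in Ku, -0.93 after 50 nM and -3.12 after 250 nM, where the median of all active genes was -0.40 and -1.11. In Cov it was -1.15 and -2.83, and that of all genes -0.85 and -1.31. The medians of all genes include genes of low level, whose changes the log2(FPKM + 1) scale understates. Among genes with a DMSO mean above 1 FPKM, the median share left at 250 nM was 34.3% in Ku and 31.5% in Cov.

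Both treated libraries lay below both DMSO libraries for 10 of 10 members at each dose in Cov and for the 9 other than ESR1 in Ku, where 75.8% of all genes did so at 50 nM and 95.9% at 250 nM in Ku, and 95.7% and 95.6% in Cov. ESR1 in Ku also lay below, but so did the floor, which went from 0.118 and 0.119 FPKM in DMSO to 0.107 and 0.103 at 50 nM and 0.0783 and 0.0822 at 250 nM, so that a row without signal is counted too. Between the doses this held for 9 members in Ku, against 87.7% of genes, and for 8 in Cov, against 75.6%. With 2 libraries a group, an exact two-sided permutation test of 1 gene cannot go below p = 0.33, so all calls rest on the spread that limma shares across genes. The doses share their DMSO libraries, and their values are therefore given side by side.

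**Figure D3:**
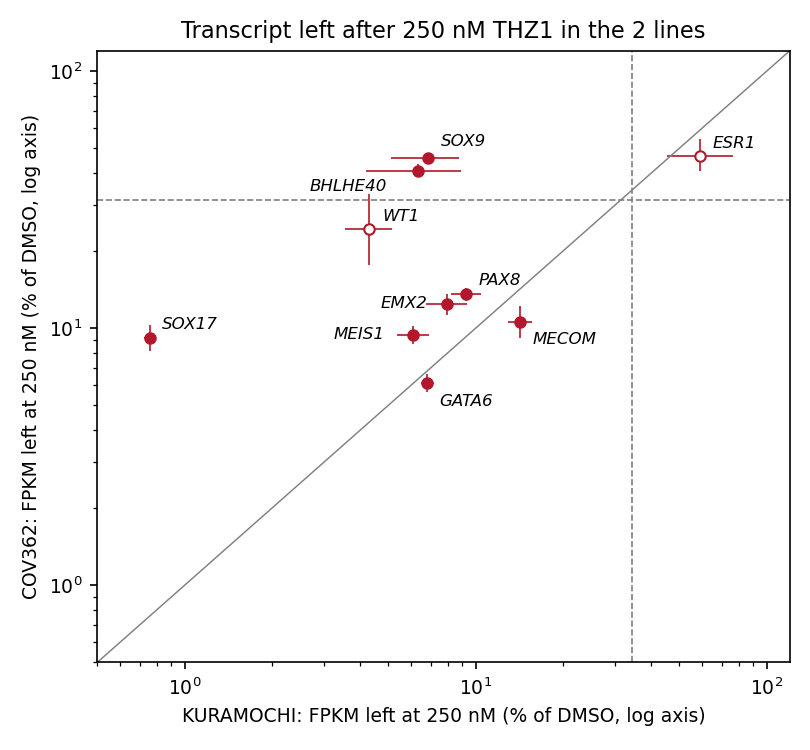
FPKM left at 250 nM THZ1 as a percentage of the DMSO mean, in Ku (horizontal) and Cov (vertical), both on log axes, for the 10 factors; bars run from the lowest to the highest ratio of a treated to a DMSO library, open points have a DMSO mean below 1 FPKM in at least 1 line, dashed lines are the medians of all genes with a DMSO mean above 1 FPKM (34.3% and 31.5%) and the diagonal marks equal percentages. PAX8, EMX2, MEIS1, MECOM and GATA6 lie near the diagonal, between 6.09% and 14.2% on both axes, SOX17 lies far to its left, and SOX9 and BHLHE40 lie above the Cov median.

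The plot of transcript left shows 3 patterns among the members, drawn here after their values were seen. PAX8, MECOM, EMX2, MEIS1 and GATA6 kept 6.09% to 14.2% in Ku and 6.12% to 13.6% in Cov. SOX17 kept 0.757% in Ku and 9.18% in Cov. SOX9 and BHLHE40 kept 6.88% and 6.32% in Ku, and 45.7% and 41.0% in Cov, above the median of all genes in that line. The 2 lines were normalized separately, and the difference between them was not tested. The share of the 250 nM change already present at 50 nM also varied: among the 9 members called in Ku it ran from 10.2% for GATA6 to 50.4% for PAX8, around a median of 37.5% for all genes called lower. In Cov it ran from 35.8% for EMX2 to 92.0% for BHLHE40 among members other than ESR1, for which it was 120%, around a median of 65.4%.

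**Figure D4:**
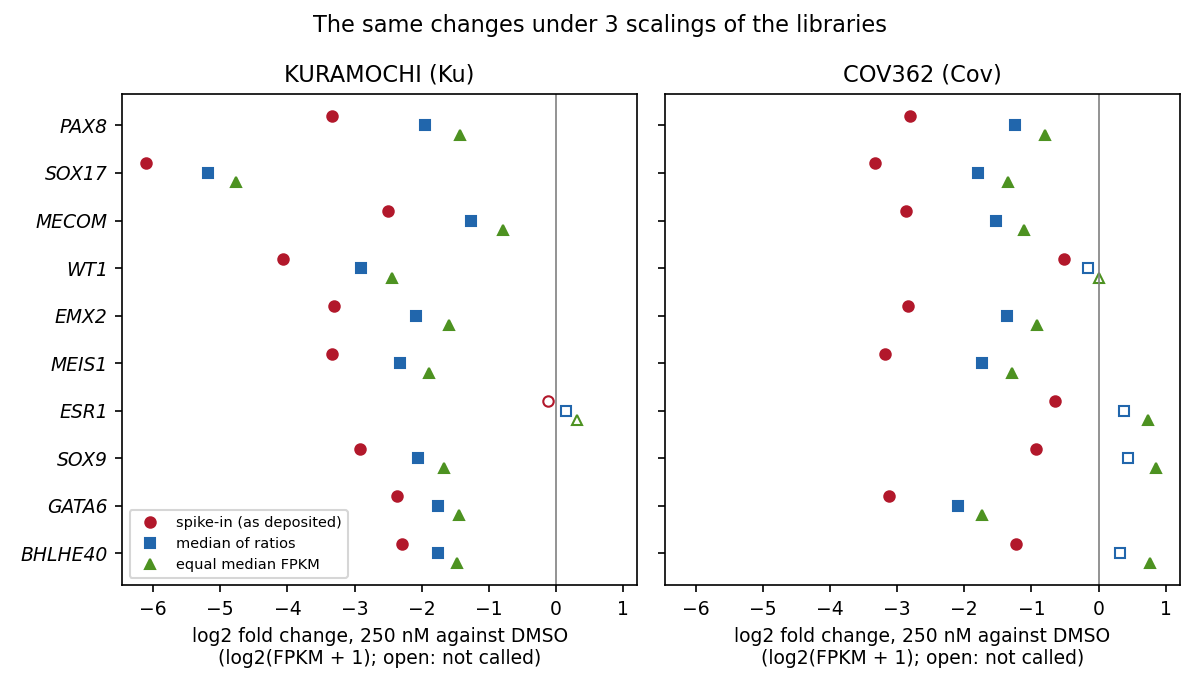
Log2 fold change of each factor at 250 nM against DMSO in Ku (left) and Cov (right) under 3 scalings of the libraries: spike-in values as deposited (circles), median of ratios (squares) and equal median FPKM of active genes (triangles); filled points are called. In Ku 9 factors stay below 0 and called under all 3 scalings, in Cov 6 do, and ESR1, SOX9 and BHLHE40 in Cov move from below 0 to above 0 under both rescalings, WT1 in Cov under equal medians only and ESR1 in Ku, never called, under both.

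The spike-in values measure RNA per cell, and rescaling the libraries to each other takes the common fall away. Scaling to an equal median FPKM moved the median log2 fold change of all active genes at 250 nM from -1.11 to 0.34 in Ku and from -1.31 to 0.38 in Cov. Median-of-ratios scaling moved it to -0.0011 and 0.013. PAX8, SOX17, MECOM, EMX2, MEIS1 and GATA6 were called lower at 250 nM in both lines under all 3 scalings, and WT1, SOX9 and BHLHE40 in Ku only. Of all active genes, 11.8% in Ku and 11.4% in Cov were called lower at 250 nM under equal medians, and 19.3% and 18.9% under median of ratios. SOX17 in Ku was at -5.18 under median of ratios (adjusted p = 1.73e-05) and -4.77 under equal medians (adjusted p = 4.62e-05). In Cov the lowest value under median of ratios was -2.09, for GATA6 (adjusted p = 4.25e-05). In the plot of scalings, BHLHE40, ESR1 and SOX9 in Cov turned to 0.77, 0.74 and 0.86 under equal medians, each called higher, as were 26.7% of all genes, and to 0.32, 0.38 and 0.44 under median of ratios, none called. After 50 nM no member was called lower in either line under equal medians, against 0.547% of all genes in Ku and 0.133% in Cov. Under median of ratios 2 were called lower in each line, PAX8 and SOX17 in Ku and PAX8 and MEIS1 in Cov, against 2.5% and 0.568% of all genes. On the spike-in scale BHLHE40, ESR1 and SOX9 after 250 nM stood 0.08, 0.66 and 0.37 log2 units above the median of all genes in that line.

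Related genes were counted on lists drawn up from general knowledge, with earlier results of these data known. Values of single genes are on the spike-in scale. Of 37 other members of the PAX, SOX, PRDM, EMX, TALE homeobox, estrogen receptor, GATA and BHLHE families, 20 were active. On the spike-in scale 16 of these were called lower after 250 nM in each line, where 68.6% (Ku) and 84% (Cov) of all active genes were. Their medians were -1.84 (Ku) and -1.55 (Cov). The medians of all genes were -1.11 and -1.31. Under equal medians 9 (Ku) and 5 (Cov) were called lower, against 11.8% and 11.4% of all genes. Under median of ratios 10 and 8 were, against 19.3% and 18.9%. BHLHE41, the closest relative of BHLHE40, had the opposite order of levels between the lines. Its FPKM was 142.9 and 124.7 in DMSO, 19.8 and 18.2 at 50 nM and 6.16 and 6.22 at 250 nM in Ku (250 nM: -4.23, SE 0.0934, adjusted p = 5.08e-06). In Cov it was 4.14 and 4.31, 0.986 and 0.963, and 0.449 and 0.402 (-1.87, adjusted p = 1.03e-06). The DMSO means were thus 133.8 FPKM for BHLHE41 and 5.65 for BHLHE40 in Ku, and 4.23 and 33.2 in Cov.

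Among the SOX genes, SOX4, a factor of progenitor cells, was the relative with the highest DMSO level in Cov (62.5 ± 6.1 FPKM) and fell by 2.33 on the log2 scale there (adjusted p = 1.15e-06) and by 3.01 in Ku (adjusted p = 1.14e-05). SOX2, a pluripotency and neural factor, was at 21.4 ± 0.728 FPKM in Cov and fell to 1.00 ± 0.0164 FPKM (-3.48, adjusted p = 8.16e-07), and was at 0.265 ± 0.032 FPKM in Ku and not called. PAX3 was at the floor in Ku and at 6.33 ± 1.26 FPKM in Cov (-1.46 at 250 nM, adjusted p = 0.000164). GATA4, a relative of GATA6, was the reverse, at 2.96 ± 0.286 FPKM in Ku (-1.71, adjusted p = 1.94e-05) and 0.173 ± 0.00716 FPKM in Cov, where it was not called.

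All 16 listed partners of the factors, among them nuclear receptor coregulators and the FOG proteins that bind GATA factors, were active. At 250 nM 15 were called lower in Ku and 16 in Cov, where 68.6% and 84% of all genes were. The medians were -1.74 and -1.77. In each line 3 were called lower under equal medians, against 11.8% (Ku) and 11.4% (Cov) of all genes. Under median of ratios 5 were, against 19.3% and 18.9%. Without Ku 250 nM replicate 1 the Ku count was 11. WTAP, the WT1-associated protein of the RNA methylation complex, had the highest level. It was at 98.8 ± 11.7 FPKM in Ku DMSO libraries, 102.2 ± 7.28 at 50 nM and 35.4 ± 3.07 at 250 nM (-1.45, adjusted p = 4.47e-05), and at 194.5 ± 16.0, 144.9 ± 16.1 and 51.2 ± 4.34 in Cov (-1.90, adjusted p = 3.24e-06). ZFPM2, the GATA partner FOG2, followed the dose pattern of GATA6 in Ku, with 30.9 ± 3.64, 26.4 ± 1.71 and 3.72 ± 0.503 FPKM (-2.76 at 250 nM, adjusted p = 1.16e-05). NRIP1, a corepressor of nuclear receptors, had the largest fall of the list in Cov on the log2(FPKM + 1) scale. It went from 25.3 ± 2.68 to 2.32 ± 0.259 FPKM there (-2.98, adjusted p = 1.02e-06), with 9.18% left, although FOXA1 kept a smaller percentage (8.56%). FOXA1, the pioneer factor of ESR1, was near the floor in Ku and fell from 3.04 ± 0.0373 to 0.260 ± 0.0658 FPKM in Cov (-1.68, adjusted p = 2.41e-06). ZFPM1 was the partner that changed least in Cov (-0.95, adjusted p = 4.73e-05), and in Ku it stood at -0.90 (adjusted p = 8.59e-05).

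**Figure D5:**
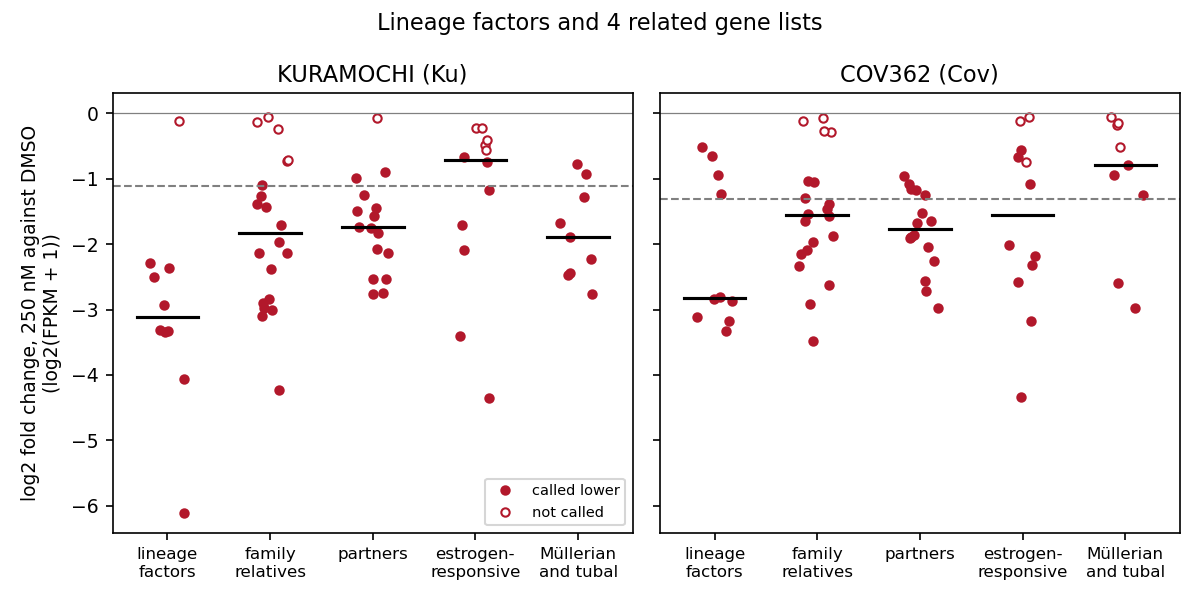
Log2 fold change at 250 nM against DMSO on the spike-in scale for the active genes of 5 lists in Ku (left) and Cov (right): the 10 lineage factors, their family relatives (20), their partners (16), estrogen-responsive genes (12) and Müllerian and tubal genes (9); each point is 1 gene, filled when called lower, bars are list medians and the dashed line is the median of all 14251 active genes. The factors have the lowest list median in each line, at -3.12 and -2.83. These values carry the common fall. Fewer genes of each other list were called lower under equal medians. Of the factors, 9 in Ku and 6 in Cov were called lower under all 3 scalings. The factors in Cov thus also lost calls, from 10 on the spike-in scale, and ESR1, SOX9 and BHLHE40 were called higher there under equal medians.

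Of 16 estrogen-responsive genes 12 were active, of which 7 were called lower at 250 nM in Ku and 9 in Cov, with medians of -0.71 and -1.55. Set against the 68.6% and 84% of all genes called lower, these counts do not stand above the background. That holds for the spike-in scale. Either rescaling left 3 in Ku and 4 in Cov called lower. Of all genes, 11.8% (Ku) and 11.4% (Cov) were called lower under equal medians, and 19.3% and 18.9% under median of ratios. XBP1, a factor of the unfolded protein response, had the largest fall of this list in both lines, from 76.1 ± 7.54 to 2.78 ± 0.471 FPKM in Ku (-4.35, SE 0.122, adjusted p = 6.52e-06) and from 53.7 ± 1.02 to 1.69 ± 0.204 FPKM in Cov (-4.35, SE 0.118, adjusted p = 8.16e-07). CCND1 (cyclin D1) had the highest DMSO level of the list in Cov, 418.7 ± 38.4 FPKM, and fell to 102.5 ± 1.07 FPKM (-2.02, adjusted p = 1.25e-06). CTSD (cathepsin D) led in Ku, at 180.7 ± 4.75 FPKM in DMSO and 107.1 ± 0.269 FPKM at 250 nM (-0.75, adjusted p = 4.95e-05). GREB1, a classical target of the estrogen receptor, was at -0.56 in Ku (adjusted p = 0.00185) and -0.05 in Cov (adjusted p = 0.466), not called in either. In Ku its FPKM went from 1.87 ± 0.184 to 0.945 ± 0.0604, with 50.5% left. In Cov its DMSO level was 0.212 ± 0.0147 FPKM, near the floor, where a fall is hardly measurable. CXCL12 was at -0.22 in Ku (adjusted p = 0.225).

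Of 16 other Müllerian and tubal genes 9 were active. All 9 were called lower at 250 nM in Ku, where 68.6% of all genes were, and 5 in Cov, where 84% were. The medians were -1.89 and -0.79. The 4 not called in Cov, HOXA9, HOXA11, DACH1 and FOXJ1, had DMSO means of 0.497, 0.246, 0.871 and 0.153 FPKM there. At 250 nM they kept 69.7%, 42.7%, 35.2% and 70.6%. The 5 with a mean above 1 FPKM were thus those called, and the Cov median includes genes of low level, whose changes the log2(FPKM + 1) scale understates. Of the list, 2 in each line were called lower under equal medians, against 11.8% (Ku) and 11.4% (Cov) of all genes. WNT7A, a ligand that patterns the Müllerian duct, had the highest level of the list in Cov. It went from 148.9 ± 11.7 to 46.9 ± 0.545 and 18.1 ± 2.21 FPKM in Cov (250 nM: -2.98, adjusted p = 8.22e-07) and from 14.3 ± 0.715 to 4.82 ± 1.41 and 1.77 ± 0.121 FPKM in Ku (-2.47, adjusted p = 4.67e-05). DACH1, a nuclear cofactor of the duct, led in Ku, from 28.7 ± 2.76 to 14.1 ± 1.87 and 3.41 ± 0.598 FPKM (-2.76, adjusted p = 1.67e-05). FOXJ1, the master factor of ciliated tubal cells, was at 0.969 ± 0.0984 FPKM in Ku and fell to 0.154 ± 0.00767 FPKM (-0.77, adjusted p = 5.56e-05), and was near the floor in Cov.

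Antisense transcripts of the members were read with care, because the library kit keeps strand but the strand setting of the counting was not given. WT1-AS, which overlaps WT1 by 47 bp, went from 8.19 ± 0.471 to 1.77 ± 0.0538 FPKM at 50 nM in Ku and stood at 2.10 ± 0.269 FPKM at 250 nM. Its log2 fold change was -1.73 at 50 nM (adjusted p = 0.000371), where WT1 itself was not called, and -1.57 at 250 nM (adjusted p = 6.1e-05), where WT1 was at -4.07. MEIS1-AS3, which overlaps MEIS1 by 19 bp, showed the same shape in Ku, with 1.75 ± 0.355, 0.498 ± 0.0245 and 0.655 ± 0.0325 FPKM (250 nM: -0.72, adjusted p = 0.000623). In Cov WT1-AS and MEIS1-AS3 were both below 1 FPKM and not called. BHLHE40-AS1 was below 1 FPKM in all 12 libraries and was not tested, and PAX8-AS1, SOX9-AS1, GATA6-AS1 and MEIS1-AS2 were not analysed here. After 50 nM in Ku, EMX2OS stood at -1.43 (adjusted p = 0.0011) and MEIS1-AS3 at -0.87 (adjusted p = 0.00117), neither called.

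Gene length was set beside the response. MECOM, longer than 99.1% of the active genes with a known span, kept 14.2% in Ku and 10.6% in Cov at 250 nM, and SOX17, with 5.71% of genes shorter than it, kept 0.757% and 9.18%. SOX9 and BHLHE40, of nearly the same length as each other and as EMX2, kept 45.7% and 41.0% in Cov where EMX2 kept 12.4%, and in Ku the same genes kept near shares, 6.88%, 6.32% and 7.96%. Over 12622 active genes with a span (88.6%), Spearman's rho between span and the 250 nM log2 fold change was 0.0141 in Ku and -0.0899 in Cov, a description across genes of the same libraries.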

How the data were processed

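Poly(A) RNA of 12 libraries was measured by RNA-seq. The deposited FPKM were made by the authors with cuffquant and cuffnorm after HiSat alignment (hg19) and were scaled by them to the ERCC spike-ins, separately for each line. FPKM are not counts, so depth is unknown, the edgeR test of the study could not be applied, and no counting interval is given. Gene length enters each value, and changes in total RNA are kept.

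Genes above 1 FPKM in at least 1 library were tested, with the 92 ERCC rows left out. Each line was fitted alone with limma 3.58.1 (R 4.3.3, the data.table package in version 1.17.8; lmFit, eBayes with trend, two-sided) on log2(FPKM + 1), a scale that understates changes of low genes, with 3 groups of 2 libraries. P-values were adjusted by Benjamini-Hochberg over 14251 genes. Calls needed an absolute log2 fold change over 0.5 besides an adjusted p under 0.001, as in the study. The code was tested on simulated data.

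Named genes were the members, their antisense rows, the gene nearest to each member (that of SOX17 is not reported here), and for each list and line the gene with the highest DMSO level and those with the lowest and highest log2 fold change at 250 nM; endothelial and other marker genes are given only as a check of identity. The members and lists were chosen with earlier results of these data known. Percent left is the ratio of mean FPKM, with no pseudocount. Alternatives were a pseudocount of 0.1, other minimums (FPKM above 10, condition means, none), 2 rescalings, the compared groups only, a replicate block, no trend, thresholds of 0.05 for the adjusted p and of 1 for the log2 fold change, and each library left out. Positions came from GENCODE on GRCh37 and promoters from RefSeq on GRCh38.p14. Tables and plots used Python 3.11.15, pandas 2.3.3, scipy 1.17.1 and matplotlib 3.10.9.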

Additional observations from a re-analysis of the deposited data

How the results depend on the processing

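Scaling moved the results most. Under equal median FPKM the members called lower at 50 nM were 0 in either line, against 0.547% (Ku) and 0.133% (Cov) of all genes. At 250 nM in Cov 6 were called lower and 3 higher, against 11.4% and 26.7% of all genes. From 50 to 250 nM 5 were lower in Ku, and 3 lower and 1 higher in Cov. The shares of all genes for that step under rescaling are not given here. Under median of ratios 2 were lower at 50 nM in each line, against 2.5% (Ku) and 0.568% (Cov) of all genes. At 250 nM 9 (Ku) and 6 (Cov) were lower, against 19.3% and 18.9%. Values that turned positive under equal medians were, in Ku, EMX2 (0.010), ESR1 (0.032) and GATA6 (0.37) at 50 nM, and ESR1 at 250 nM (0.31) and from 50 to 250 nM (0.28). In Cov they were BHLHE40 (0.042), EMX2 (0.18) and SOX9 (0.55) at 50 nM, then BHLHE40 (0.77), ESR1 (0.74), SOX9 (0.86) and WT1 (0.014) at 250 nM, and BHLHE40 (0.73), PAX8 (0.039), SOX9 (0.31) and WT1 (0.18) from 50 to 250 nM. Under median of ratios they were, in Ku, ESR1 (0.0031) and GATA6 (0.24) at 50 nM and ESR1 at 250 nM (0.15) and between doses (0.15). In Cov they were SOX9 at 50 nM (0.37), BHLHE40 (0.32), ESR1 (0.38) and SOX9 (0.44) at 250 nM, and BHLHE40 (0.47), SOX9 (0.062) and WT1 (0.070) between doses. Rescaling raises every gene of a treated library together.

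Relatives, partners, estrogen-responsive and Müllerian genes called lower at 250 nM numbered 9, 3, 3 and 2 under equal medians in Ku and 5, 3, 4 and 2 in Cov. Under median of ratios the first 3 lists gave 10, 5 and 3 in Ku, and all 4 gave 8, 5, 4 and 2 in Cov. Of all genes, 11.8% (Ku) and 11.4% (Cov) were called lower under equal medians, and 19.3% and 18.9% under median of ratios. For the Müllerian list, 5 were called in Ku when FPKM above 10 was required, which left 5 genes to test, and 3 in Cov beyond a log2 fold change of 1.

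At 50 nM in Ku, no minimum and the fit of only the compared groups each gave 0 members, and an adjusted p under 0.05 gave 8, where 40.2% of all genes passed. The cause was not tested. Leaving out a library gave 0 to 0 members at 50 nM, 9 to 9 at 250 nM and 5 to 9 between doses in Ku, and 6 to 9, 8 to 10 and 5 to 6 in Cov. The lists gave 14 to 16 relatives, 11 to 15 partners, 7 to 7 estrogen-responsive and 9 to 9 Müllerian genes in Ku, and 14 to 16, 16 to 16, 7 to 9 and 4 to 6 in Cov.

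Replicate numbers did not pair the samples (correlation of deviations -0.0703 to 0.0282). With the replicate number as a block, 2, 9 and 9 members were called in Ku (50 nM, 250 nM, between doses) and 8, 8 and 5 in Cov. The shares of all genes in this fit and in the fits with a library left out are not given here. MEIS1 at 50 nM in Ku (adjusted p = 0.00145) and ESR1 and WT1 at 250 nM (0.00113 and 0.00158) and PAX8 between doses (0.00133) in Cov were the calls lost. Outside scaling and left-out libraries, 506 of 534 values for single members kept direction and call, 19 lost the call, 9 gained it and 0 turned. Depth is unknown, and levels near the floor, ESR1 in Ku and WT1 in Cov, set a limit to what is measurable.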

Other observations

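For the members other than SOX17, the gene with the most similar course over the 12 libraries was sought, by the Euclidean distance between log2(FPKM + 1) values taken relative to the DMSO mean of each line. On this scale genes near the floor barely move, so the small distance of NPTX2 from ESR1 (0.151) goes with low levels of both, NPTX2 having DMSO means of 0.213 FPKM in Ku and 2.64 FPKM in Cov. Among the others the closest match was RNF4 for GATA6 (0.276), followed by ARMC1 for MECOM (0.302), NXT1 for EMX2 (0.322) and UTP3 for MEIS1 (0.378). NNMT for BHLHE40 (0.43), RDH10 for PAX8 (0.48) and OTUD1 for SOX9 (0.544) were less close. WT1 had the least close match of these, ID1 at a distance of 1.29. Each distance is taken over all 12 libraries together and is not a difference in log2 units.

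RNF4 shared the dose pattern of GATA6 at a higher level, with DMSO means of 36.7 FPKM in Ku and 65.1 FPKM in Cov. Its log2 fold changes in Ku were -0.18 at 50 nM and -2.49 at 250 nM, and those in Cov were -1.21 and -3.04. NNMT stood at -2.41 at 250 nM in Ku, from 141.9 FPKM, and at -1.15 in Cov, from 3.33 FPKM. BHLHE40 stood at -2.29 and -1.23, from 5.65 FPKM in Ku and 33.2 FPKM in Cov, the opposite order of levels. The log2(FPKM + 1) scale understates changes at low levels, so these near values do not mean near shares of transcript left. Lines were not tested against each other. These genes were selected for likeness among all active genes, so their values are a description and carry no test.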
